A study of Mus musculus with 1829 samples.

Results

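Among 293 blood wells of the series, 89 had 20 or more of 96 transcript assays detected, and these 89 were divided by whether Tbx21 was detected: 61 with Tbx21 and 28 without it. An assay counted as detected when its call was pass and its Ct, the PCR cycle at which the signal crosses the threshold, was below 24. The wells were thus selected on the number of assays and on Tbx21 itself, so neither the presence of Tbx21 nor its level is a result here. Each well held 1 CD4+ T cell from the blood of an untreated NOD/ShiLtJ mouse, a strain prone to spontaneous autoimmune diabetes, sorted with an IAg7 tetramer carrying residues 12-20 of the insulin B chain. Tetramers mark T cells whose receptor binds that peptide as IAg7, an MHC class II protein, presents it. All members but 1 came from 5 animals of 8 weeks, named M1, M2, M3, M4 and p12M3 in the sample names. The exception, a Tbx21-negative well of a 7-week animal, entered no test. The whole series holds 1829 wells of blood, islets, lymph node and spleen.

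Tbx21 encodes T-bet, the transcription factor that directs CD4+ T cells towards the Th1 programme. Th1 cells secrete interferon gamma (Ifng) and carry the chemokine receptor CXCR3, which draws them to inflamed tissue, and T-bet is known to act on the genes of both. Naive and central memory T cells instead carry CCR7, the receptor that brings them from blood into lymph nodes. In the diabetes of NOD mice, Th1 cells reactive to insulin are among the cells that enter the islets.

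T-bet binds DNA, so the 250 bases upstream of the start sites of Ifng and Cxcr3, its best known targets on the panel, are shown as context, from RefSeq on build GRCm38.p6. The Ifng stretch lies on the plus strand at chr10:118440796-118441045 and the Cxcr3 stretch on the minus strand at chrX:101734148-101734397. Capitals mark the TATA box sequence TATAAA, which was searched on both strands together with the T-box core GGTGTGA.
Ifng: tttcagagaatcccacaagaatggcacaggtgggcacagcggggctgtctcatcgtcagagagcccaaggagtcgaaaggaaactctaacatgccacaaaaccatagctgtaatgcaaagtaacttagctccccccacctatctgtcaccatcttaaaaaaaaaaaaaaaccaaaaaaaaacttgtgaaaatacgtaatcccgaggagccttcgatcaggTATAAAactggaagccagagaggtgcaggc
Cxcr3: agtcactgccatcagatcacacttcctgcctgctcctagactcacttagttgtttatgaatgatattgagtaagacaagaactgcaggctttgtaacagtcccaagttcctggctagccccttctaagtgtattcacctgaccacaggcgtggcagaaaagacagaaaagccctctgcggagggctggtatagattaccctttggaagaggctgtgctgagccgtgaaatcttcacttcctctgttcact
TATAAA begins 30 bases before the Ifng start and is in 12.4% of 32851 such upstream stretches. GGTGTGA is in 3.33% of them and in neither sequence shown.

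Expression is given as log2Ex, which is 24 minus Ct where the assay was detected and 0 where it was not, so that a mean over wells holds both how often a transcript was found and its level. Wells of an animal are not replicates. Each value below is therefore a mean over the wells of 1 animal and 1 arm, and each difference is the mean of Tbx21-detected wells minus that of Tbx21-negative wells on the same chip, over 5 animals. Whether M3 and p12M3 are separate animals is not stated. One chip held M1 with M2 and another M3 with M4, while p12M3 lay on a chip with other tissues.

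The members had a median of 42 assays (range 20 to 54), against 10 in the 204 blood wells below the limit. All 24 blood wells of p12M3 were members, against 19.6 to 52.2% of the wells of the other 8-week animals, 1 of 39 wells of the 7-week animal M2 and 0 of 46 of the 7-week animal M1. Cd3e, a signalling part of the T cell receptor, was detected in 60 of 61 wells with Tbx21 and 27 of 28 without. Cd4, whose protein the sort selected, was found in 43 of 61 (70.5%, exact Clopper-Pearson 95% interval 57.4 to 81.5%) and 21 of 28 (75.0%, 55.1 to 89.3%). Cd8a, which marks CD8 T cells, was found in 1 of 61 and 0 of 28 wells, the latter allowing a share of up to 10.7%. Intervals and limits of this kind cover counting error only.

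Both limits of the selection were sparsely populated. The 2 blood wells with 18 or 19 assays, just outside, and the 2 with 20 or 21, just inside, each included 1 with Tbx21. Tbx21 Ct in the 61 wells had a median of 14.7, and the latest were 23.1 and 22.6, followed by 19.99. Of the 28 negative wells, 27 had no Tbx21 amplification curve and 1 had a Ct of 22.7 with a fail call. In blood wells with under 20 assays, Tbx21 was detected in 3 of 204 (1.47%, 0.304 to 4.24%). By animal, Tbx21 was detected in 14 of 18 member wells of M1, 18 of 24 of M2, 10 of 13 of M3, 6 of 9 of M4 and 13 of 24 of p12M3, a mean of 70.1% ± 9.94 (SD, n = 5).

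Wells with Tbx21 nearly always held Cxcr3, mostly held Ifng and almost never held Ccr7. Of 69 assays tested, 5 were higher (7.25%) and 1 was lower (1.45%) in wells with Tbx21 at an adjusted p under 0.05 (limma with Benjamini-Hochberg adjustment over the 69 assays, n = 5 animals), and 14 passed 0.05 unadjusted. Of the 5, Cxcr3, Ifng, the interleukin-18 receptor gene Il18r1 and the tumour necrosis factor receptor gene Tnfrsf1a are described here, and the 1 was Ccr7. The arm means of the 5 animals did not overlap for 8 of the 69 assays (11.6%), 6 of them higher with Tbx21. These 8 included the T cell receptor kinase gene Zap70, higher with Tbx21, and Nr4a1, which encodes the factor NUR77 and was lower. Without p12M3, 0 of 72 assays passed in limma (10 unadjusted), while the differences of Cxcr3 and Ccr7 were 7.67 and -5.21, against 8.12 and -5.51 with it, both at a limma adjusted p of 0.0590. With M3 and p12M3 merged as 1 animal, 0 of 69 passed (13 unadjusted), with Cxcr3 at 8.19 and Ccr7 at -5.28, both at 0.0601.

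**Figure D1:**
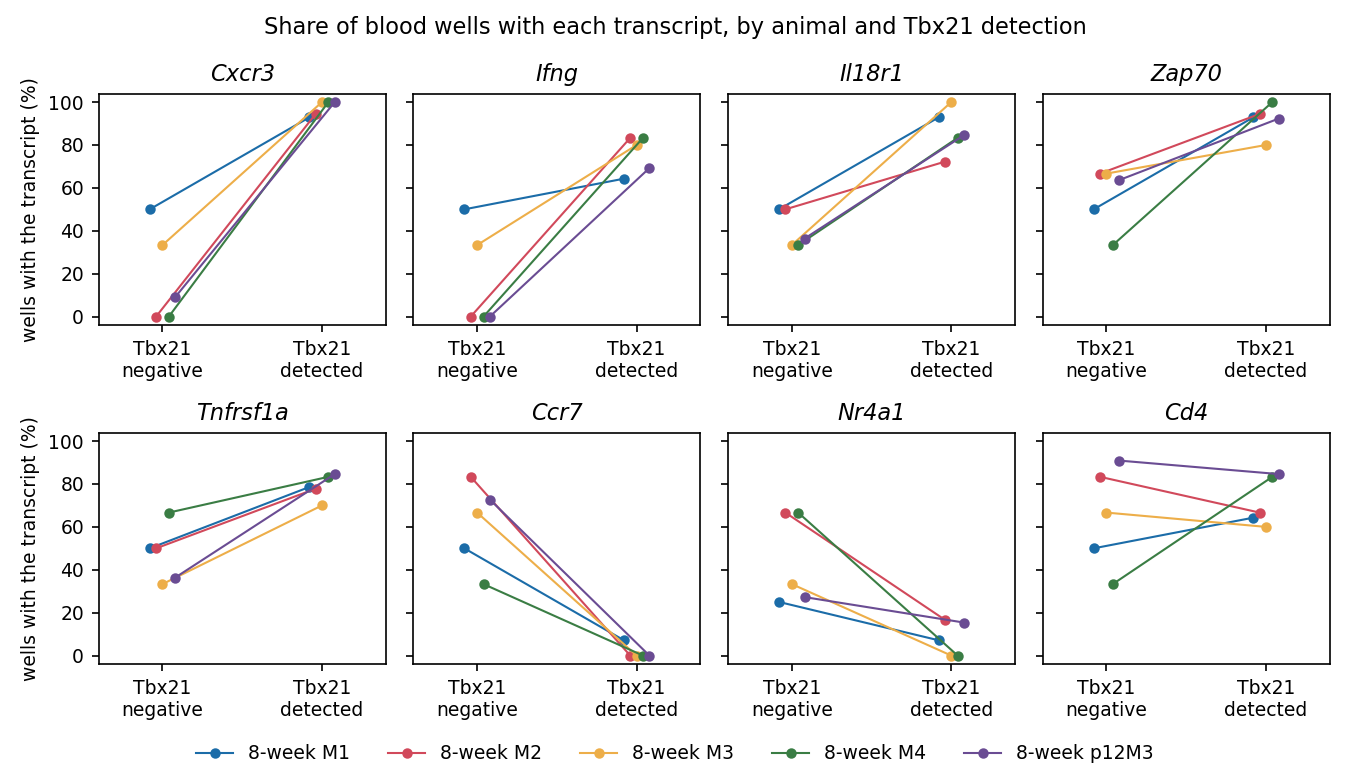
Share of blood wells with each of 8 transcripts (y axis, percent) in Tbx21-negative and Tbx21-detected wells (x axis), with 1 line for each of the 5 animals. For Cxcr3, the shares with Tbx21 all lie at or above 92.9% and those without it at or below 50.0%, and for Ccr7 the order is turned.

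Cxcr3 was found in wells with Tbx21 in 13 of 14 for M1, 17 of 18 for M2, 10 of 10 for M3, 6 of 6 for M4 and 13 of 13 for p12M3. In wells without Tbx21 the counts were 2 of 4, 0 of 6, 1 of 3, 0 of 3 and 1 of 11, in the same order. The highest share without Tbx21, that of M1, was below the lowest share with it. Mean log2Ex with Tbx21 was 8.69, 9.53, 10.5, 10.5 and 10.6, and without it 5.22, 0, 3.33, 0 and 0.76. The difference was 8.12 (SE 1.08, limma adjusted p = 0.00708), above 0 in 5 of 5 animals, the largest of the 69. Over animals, Cxcr3 was detected in 97.5% ± 3.52 of wells with Tbx21 and 18.5% ± 22.3 of wells without (SD, n = 5).

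Ifng was detected in 9 of 14, 15 of 18, 8 of 10, 5 of 6 and 9 of 13 wells with Tbx21 of M1, M2, M3, M4 and p12M3. Without Tbx21 it was detected in 2 of 4, 0 of 6, 1 of 3, 0 of 3 and 0 of 11. The arms lay close in M1, at 5.72 and 5.21 log2Ex, and far apart in the other 4 animals, where the differences ran from 4.00 to 8.20. The mean difference was 5.58 (SE 1.22, limma adjusted p = 0.0356, 5 of 5 animals). Ifng passed the test when M1 was left out (6.84, limma adjusted p = 0.00814) and not when any other animal was (limma adjusted p = 0.0709 to 0.141).

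Ccr7 ran the other way. It was found in 1 of 14 wells with Tbx21 of M1 and in 0 of 18, 0 of 10, 0 of 6 and 0 of 13 of the other animals. Without Tbx21 it was found in 2 of 4 wells of M1, 5 of 6 of M2, 2 of 3 of M3, 1 of 3 of M4 and 8 of 11 of p12M3. The arms did not overlap: mean log2Ex was 0 to 0.58 with Tbx21 and 3.05 to 7.33 without. The difference was -5.51 (SE 0.779, limma adjusted p = 0.00708, below 0 in 5 of 5 animals). When fail calls were ignored it was -2.10 (adjusted p = 0.183).

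Il18r1, whose product lets Th1 cells respond to interleukin-18, averaged 8.60, 6.45, 10.4, 8.39 and 7.66 log2Ex in wells with Tbx21 of M1, M2, M3, M4 and p12M3. Without Tbx21 it averaged 5.14, 5.36, 3.30, 3.61 and 3.56. The arms did not overlap, M2 having the smallest gap, and the difference was 4.10 (SE 0.872, limma adjusted p = 0.0356). Tnfrsf1a averaged 6.70, 6.33, 5.96, 7.59 and 7.71 with Tbx21 and 4.84, 4.03, 3.31, 5.16 and 3.10 without. The arms did not overlap, p12M3 had the largest gap, and the difference was 2.77 (SE 0.591, limma adjusted p = 0.0356). Leaving out 1 animal ended the call of Tnfrsf1a in each of the 5 cases and that of Il18r1 in 4, M2 being the exception.

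Nr4a1, an immediate early gene of T cell receptor signalling, was found in 1 of 14, 3 of 18, 0 of 10, 0 of 6 and 2 of 13 wells with Tbx21, in the order of animals above. Without Tbx21 it was found in 1 of 4, 4 of 6, 1 of 3, 2 of 3 and 3 of 11. The difference of -3.21 (SE 0.945) had the same sign in 5 of 5 animals and did not pass the test (limma adjusted p = 0.0997). Over 18 alternative settings in log2Ex the Nr4a1 difference ran from -4.65 to -0.28 and passed in 1. Zap70 differed by 3.14 (SE 0.871, limma adjusted p = 0.0872), above 0 in 5 of 5 animals.

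Of 9 Th1 and effector genes on the panel, 8 were tested, and 4 were higher with Tbx21, 0 lower and 4 not called. All 8 differences were above 0, with a median of 3.04 against 0.61 over all 69 assays. Of all 69, 49 were above 0 and 5 were called higher. The list includes Cxcr3 and Ifng and was written with earlier results of these data known, so its counts are description. Those not called included the assay named Il-12rb, for an interleukin-12 receptor chain, at 3.08, the signalling factor Stat4 at 2.59 and the cytokine Tnf at 1.35. Il2, the ninth, was detected in 0 of 89 wells (up to 3.37%).

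Of 2 naive and central memory genes, Ccr7 was lower and Il7r, the receptor for the survival cytokine interleukin-7, was not called. Il7r was detected in 9 of 14, 7 of 18, 5 of 10, 5 of 6 and 10 of 13 wells with Tbx21 and in 3 of 4, 6 of 6, 2 of 3, 1 of 3 and 11 of 11 without. It was lower with Tbx21 in 4 of 5 animals and higher in M4, for a difference of -1.58 (SE 1.46, limma adjusted p = 0.529). The chemokine receptor genes Ccr2, at 2.37, and Cxcr4, at -2.35, were not called. Of 6 cytokine and TNF receptor genes, Tnfrsf1a was higher and 5 were not called, with a list median of 2.64. They included Tnfrsf1b at 3.24, Il4ra at 2.63 and Il2ra, the interleukin-2 receptor alpha chain of activated cells, at 2.66.

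The lists of other T helper fates held no call. These were 3 tested Th2 genes (median 0.04), 1 Th17 gene (0.10), 3 regulatory T cell genes (-0.15) and 3 follicular helper genes (0.82). The Th17 gene, Ccr6, and the Th2 gene Il25 were also detected in 201 and 184 of the 204 blood wells with under 20 assays. Over the 5 animals, Ccr6 was detected in 100% of member wells with Tbx21 and 98.2% of those without. Il25 was detected in 83.0% and 96.4%. Whether their detection in wells with few assays bears on the missing calls was not tested. Foxp3, the factor that defines regulatory T cells, was found in 3 of 61 wells with Tbx21 and 2 of 28 without, and differed by -0.71 (SE 0.794, limma adjusted p = 0.603). Bcl6, the follicular helper factor, stood at 0.82, the co-stimulatory receptor Icos at 0.86, and the inhibitory receptors Pdcd1 and Ctla4 at -0.29 and -0.15. Il10 and Il21, cytokines of regulatory and follicular cells, were each detected in 2 of the 89 wells and were not tested. Of 5 activation and memory genes none passed in limma, with Nr4a1 lowest and Il2ra highest and the adhesion receptor gene Cd44 at 0.61, and of these Nr4a1 and Il2ra passed 0.05 unadjusted. None of 9 interferon-stimulated genes passed in limma either (median 0.91, 0 unadjusted), genes that interferons induce. Among them Ifit3, Isg15, Ifi44 and Cxcl10 were also detected in 204, 192, 185 and 183 of the 204 blood wells with under 20 assays. In member wells with and without Tbx21, mean shares over animals were 98% and 100% for Ifit3 and 96% and 96.7% for Isg15. They were 97.4% and 100% for Ifi44 and 89.5% and 98.2% for Cxcl10. A bearing on the missing calls was not tested here either. Cd4 differed by 0.22, Cd3e by 1.26 and the housekeeping gene Gapdh by 0.22, with limma adjusted p-values of 0.919, 0.529 and 0.824, and the signs of Cd4 and Gapdh turned when each arm was centred on its mean over assays. Gapdh was also detected in 204 of 204 blood wells with under 20 assays, at a mean of 13.98 log2Ex. In member wells it averaged 14.02 with Tbx21 and 13.82 without, so its level did not tell wells with many assays from those with few.

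Within single wells, Cxcr3 and Ccr7 were found together in 0 of 89, which allows up to 3.37%. Of the 61 wells with Tbx21, 46 had Cxcr3 and Ifng, 13 had Cxcr3 without Ifng, 1 had Ccr7 alone and 1 had none of these transcripts. Of the 28 without Tbx21, 19 had Ccr7 alone, 3 had Cxcr3 and Ifng, 1 had Cxcr3 alone and 5 had none. All 49 wells with Ifng had Cxcr3 as well. The pattern of 46 wells was seen in 5 of 5 animals, and that of 19 wells in 6 animals, including the 7-week animal. These combinations are counts of wells and carry no test.

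**Figure D2:**
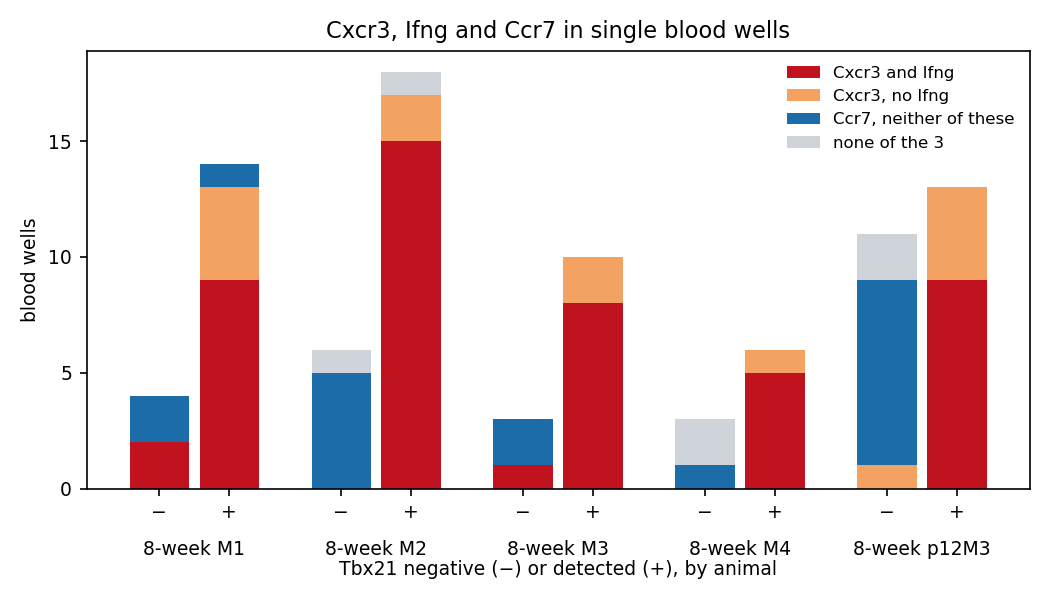
Number of blood wells (y axis) with each combination of Cxcr3, Ifng and Ccr7, stacked, for Tbx21-negative and Tbx21-detected wells of each of the 5 animals (x axis). Wells with Cxcr3 and Ifng fill most of each Tbx21-detected bar, and wells with Ccr7 are found in the Tbx21-negative bars and in 1 well of M1.

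The exceptions were few enough to describe one by one, after their values were seen. The 1 well with both Tbx21 and Ccr7, of M1, had the latest Tbx21 signal of all, at 0.92 log2Ex, just inside the Ct limit. It lacked Cxcr3 and Ifng and had 38 assays. The other well with Tbx21 and no Cxcr3 had Tbx21 at 7.64 log2Ex. The 4 wells without Tbx21 that had Cxcr3 came from 3 animals and had 40 to 46 assays. All 4 had Il18r1, Tnfrsf1a, Zap70, Icos and Cd3e, and 0 of 4 had Cd4 or Ccr7. Among the 19 wells with Ccr7 and no Tbx21, 18 had Cd4, 18 had Il7r and 4 had Il18r1.

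Levels can also be set side by side in the wells that held a transcript. Cxcr3 in its positive wells averaged 9.36 and 10.4 log2Ex with and without Tbx21 in M1, 10.5 and 9.98 in M3 and 10.6 and 8.36 in p12M3. Il18r1 in its positive wells averaged 8.93 to 10.4 with Tbx21 and 9.79 to 10.8 without, over the 5 animals. No test was made of these levels, since some rest on 1 well.

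Wells with Tbx21 also had more assays detected in total. Besides Tbx21 they had 40.3, 43.2, 40.8, 42.5 and 44.8 assays on average in M1, M2, M3, M4 and p12M3, and wells without it had 40, 35.5, 38.7, 29.7 and 39.1. The gap was small in M1 and M3 and largest in M4, and 1 negative well of p12M3 had the most assays of all. The difference was 5.73 ± 4.92 assays (SD, n = 5), above 0 in 5 of 5 animals (two-sided exact sign-flip permutation test, p = 0.0625, which 5 animals cannot go below).

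**Figure D3:**
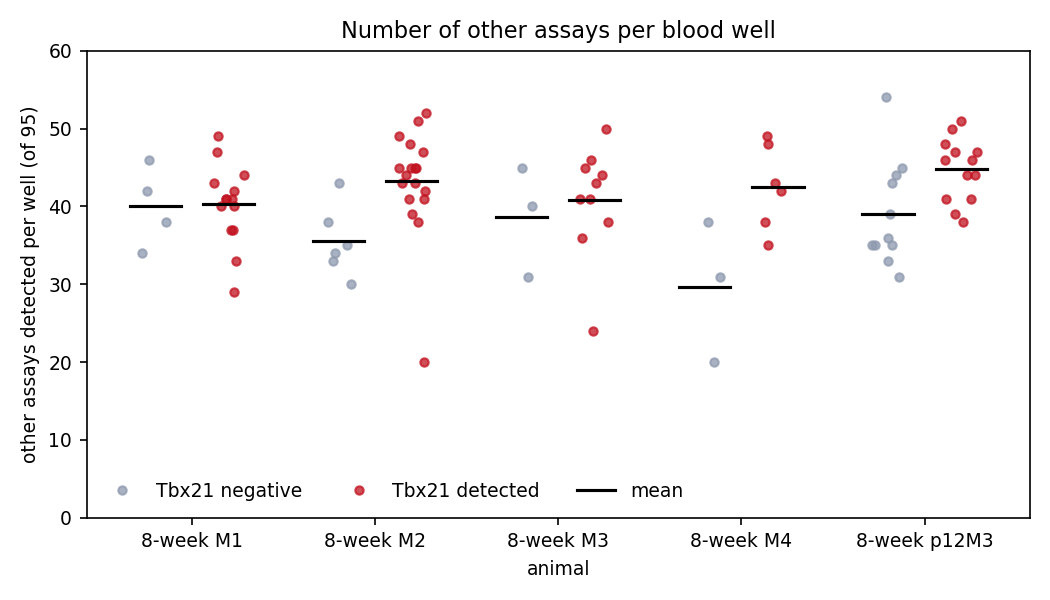
Number of other assays detected per blood well (y axis, of 95) for Tbx21-negative and Tbx21-detected wells of each animal (x axis), with 1 point per well and a bar at the mean. The means of the arms nearly coincide in M1 and are 12.8 assays apart in M4.

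The differences were therefore computed again at an equal number of other assays, by taking off each assay's slope on that number within animals and arms. At equal number, 1 of 69 assays was higher (1.45%) and 1 lower (1.45%) with Tbx21, again Cxcr3 at 7.14 (SE 0.854, limma adjusted p = 0.00508) and Ccr7 at -5.06 (SE 0.789, limma adjusted p = 0.0133). The median of all assays went from 0.61 to 0.08. Without p12M3, Cxcr3 passed (6.46, limma adjusted p = 0.0295) and Ccr7 did not (-4.85, limma adjusted p = 0.0710). Without M2 or M3, too, Ccr7 missed the threshold, at limma adjusted p-values of 0.0506 and 0.0743. The slope enters as if known without error, so that these p-values can be too small.

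Ifng stood at 4.40 at equal number (SE 0.939, limma adjusted p = 0.0536) and was above 0 in 5 of 5 animals. Il18r1 stood at 3.41 (limma adjusted p = 0.0860). Tnfrsf1a went from 2.77 to 1.24 (limma adjusted p = 0.448). Nr4a1 stood at -4.02 (limma adjusted p = 0.0860), the interferon regulatory factor gene Irf2 at -2.43 (0.0817) and the signalling factor gene Stat3 at -1.98 (0.0860), each below 0 in 5 of 5 animals. The Th1 and effector list had a median of 2.71 at equal number, with 8 of 8 differences above 0 and 1 of 8 called. Of all 69 assays, 40 were above 0 at equal number, and 1 was called higher and 1 lower.

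**Figure D4:**
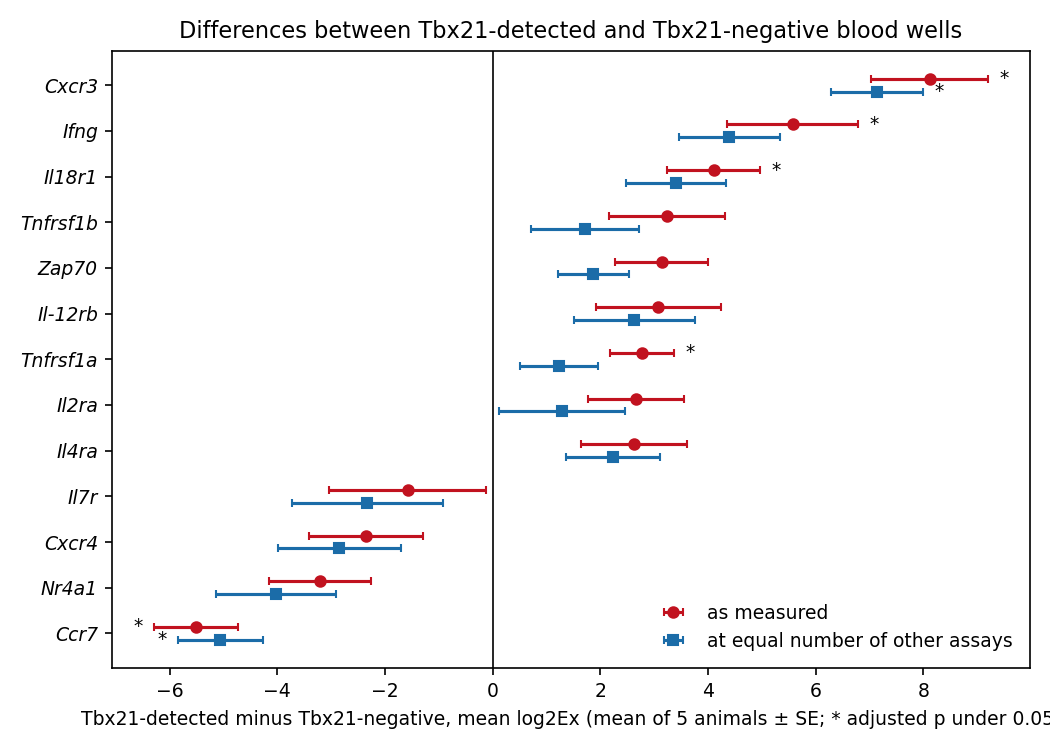
Difference in mean log2Ex between Tbx21-detected and Tbx21-negative blood wells (x axis; mean of 5 animals with SE) for 9 of the 10 assays with the largest positive and the 4 with the largest negative differences (y axis), as measured and at an equal number of other assays. Cxcr3 and Ccr7 carry an asterisk in both forms, while Ifng, Il18r1 and Tnfrsf1a carry one only as measured.

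As another check, 17 pairs of wells of the same animal that differed by at most 3 other assays were compared, 4 of M1, 3 of M2, 2 of M3, 1 of M4 and 7 of p12M3. Cxcr3 differed by 7.54, Ifng by 6.51 and Ccr7 by -5.77 in these pairs, each at a limma adjusted p of 0.0195 (n = 5 animals). Il18r1 differed by 1.38 and Tnfrsf1a by 1.14, with limma adjusted p-values of 0.767 and 0.718. Il2ra stood at -0.52 in the pairs, against 2.66 over all member wells.

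The same division was made in islet wells of the same tetramer with 20 or more assays, 89 wells of 5 animals (7-week M1, M2 and i2, 8-week p12M3 and 13-week M3). There 2 of 75 assays were higher with Tbx21 (2.67%) and 0 lower (limma, 25 unadjusted), Nr4a1 at 2.85 (SE 0.511) and Irf4, a factor induced by receptor signalling, at 3.46 (SE 0.685), each with an adjusted p of 0.0484. Leaving out the 7-week M1 gave 22 higher, leaving out any other animal gave 0, and at equal number of assays 0 passed (9 unadjusted). Islet wells with Tbx21 had 7.36 ± 2.24 more other assays than those without (SD, n = 5). Over these 5 animals, Cxcr3 was detected in 88.5% ± 11.4 of islet wells with Tbx21 and 78.7% ± 15.4 of those without (SD). In blood the shares were 97.5% ± 3.52 and 18.5% ± 22.3 (SD, n = 5). Over all 125 such islet wells, which also cover animals not compared, Cxcr3 was found in 49 of 55 with Tbx21 and 39 of 70 without (55.7%). Ccr7 was found in 23 of 55 and 21 of 70 of them. These pooled counts carry no test.

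The size of the division differed between blood and islets for 5 of 66 assays in limma. For Cxcr3 it was larger in blood (1.52% of assays), 8.12 ± 2.88 against 1.72 ± 2.14 (SD, n = 5 and 5; difference 6.40, SE 1.42, limma adjusted p = 0.0107). For 4 assays it was lower in blood (6.06%). Ccr7 differed by -5.51 ± 1.84 in blood and 1.59 ± 2.09 in islets (difference -7.10, SE 1.21, limma adjusted p = 0.00243). Nr4a1 differed by -3.21 ± 2.42 in blood and 2.85 ± 0.887 in islets (difference -6.06, SE 1.15, limma adjusted p = 0.00382). Pdcd1, the gene of the receptor PD-1, differed by -0.29 ± 0.985 and 4.18 ± 2.55 (difference -4.47, SE 1.20, limma adjusted p = 0.0351), and Irf4 by 0.04 ± 0.852 and 3.46 ± 1.64 (difference -3.42, SE 0.985, limma adjusted p = 0.0482). Among these 5 assays, picked by the test itself, the animals of the 2 tissues overlapped for Cxcr3 and not for Ccr7, Nr4a1, Pdcd1 or Irf4. Such overlap was not counted over all 66 assays, so it adds nothing to the test. At equal number of assays Irf4 no longer passed (-1.94, limma adjusted p = 0.352). Ifng, at 5.58 ± 3.31 and 1.84 ± 1.52, did not pass (difference 3.73, limma adjusted p = 0.139).

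**Figure D5:**
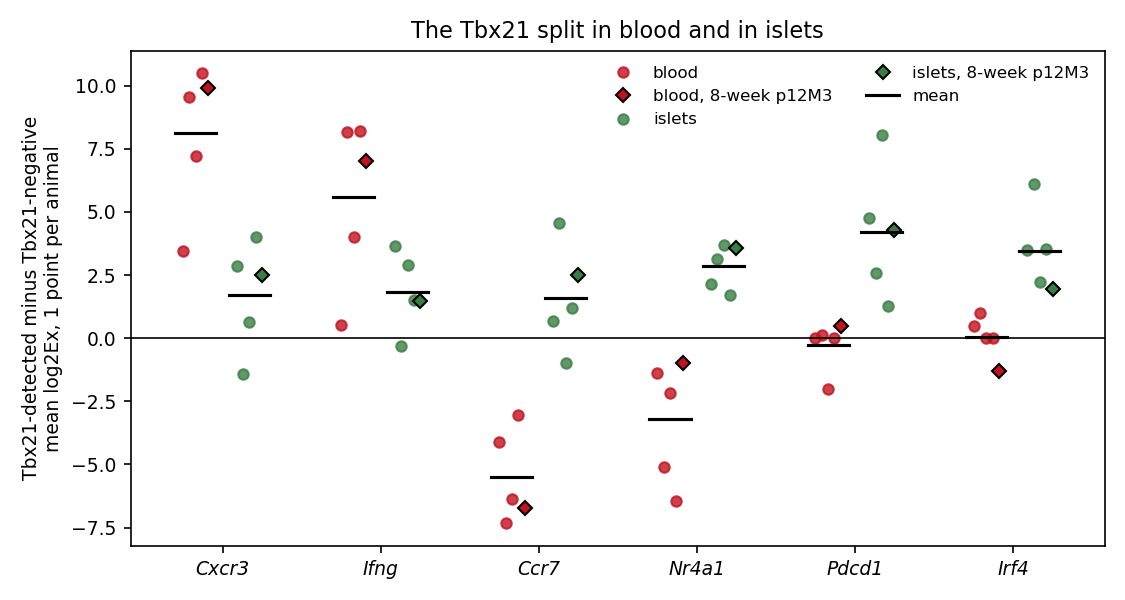
Difference in mean log2Ex between Tbx21-detected and Tbx21-negative wells (y axis) in blood and islets for 6 transcripts (x axis), with 1 point per animal, a bar at the mean and p12M3, measured in both tissues, as a diamond. For Nr4a1 all 5 blood points lie below 0 and all 5 islet points above it.

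The fit treats the blood and islet values of p12M3 as separate animals; without that animal Ccr7 (-6.57) and Nr4a1 (-6.44) passed, both at a limma adjusted p of 0.0244, while Cxcr3 (6.15), Pdcd1 (-4.64) and Irf4 (-3.47) did not, at limma adjusted p-values of 0.0845, 0.104 and 0.104. The blood animals were of 8 weeks and the islet animals, p12M3 apart, of 7 or 13 weeks, so that outside p12M3 the tissue and the age cannot be told apart. Within p12M3, on 1 chip, Ccr7 was found in 0 of 13 blood wells with Tbx21 and 8 of 11 without, and in 7 of 16 and 2 of 6 islet wells. Cxcr3 was found there in 13 of 13 and 1 of 11 blood wells, and in 14 of 16 and 5 of 6 islet wells. On that chip the arm with Tbx21 held 13 of 24 blood wells, 16 of 22 islet wells, 1 of 11 lymph node wells and 0 of 10 spleen wells (up to 30%). Over all animals of the 12-20 tetramer it held 61 of 89 blood wells and 55 of 125 islet wells with 20 or more assays. These counts pool wells and only describe the division, which Tbx21 itself defined. They carry no test, and no order of the tissues is read from them.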

How the data were processed

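Transcripts of single sorted CD4+ T cells were amplified with EvaGreen dye on Fluidigm chips of 96 wells and 96 assays, per the labels' protocols. The deposited tables hold, per the file headers, Ct values with a pass or fail call at a quality threshold of 0.65 and a melting temperature, exported by Fluidigm Real-Time PCR Analysis 4.0.1. Ct is treated here as a score on a cycle scale, as deposited by the authors, before any later step of theirs. Well names tied 1829 wells to samples; the other 283 wells were not used. In 6 wells the title and the tetramer label disagree, and these were in no group. No reference gene scaling was applied.

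The rule took blood wells with at least 20 assays and divided them by Tbx21. Animals with at least 3 wells per arm were compared. Assays detected in at least 5% of wells of either arm were tested, 69 of 95; of the other 26, 12 were detected in no member well. The animal was the block, since both arms came from the same animal and chip. The correlation of the arms of an animal, each assay centred, had a median of -0.06 (range -0.20 to 0.34, n = 5), against -0.00256 between animals. Tests used limma 3.58.1 (lmFit and eBayes) in R 4.3.3 with Benjamini-Hochberg adjustment and a threshold of 0.05. They were tried on simulated data, where detection did not depend on a well's number of assays or on the animal. That trial could therefore not check whether the adjustment to equal number removes such a dependence. Separate cultures or extractions per animal are not described, and p-values measure the spread between the differences of these animals. With 5 animals, precision is limited by their number and by arms of as few as 3 wells. Alternatives changed the Ct limit, the use of calls, the assay minimum and the wells per arm, and left out each animal. Tables were read with Python 3.11.15, pandas 2.3.3 and scipy 1.17.1, and figures drawn with matplotlib 3.10.9.

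The members, lists and index genes were chosen with earlier results of these data known. The text names index genes whatever their p, assays past the threshold, the largest differences in each direction and list members; wells or genes named otherwise are so marked. Mouse symbols were found for 95 of 96 assays, and Il-12rb keeps its assay name. Amplicon sequences and positions were not used here. Counts cover all assays tested, and some results are not reported here.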

Additional observations from a re-analysis of the deposited data

Results flagged for a closer look

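In 10 of the 69 assays tested the difference between arms of 1 animal lay far from those of the other 4 by Dixon's criterion. Chance alone meets it in about 1 in 20 groups of normally distributed values with equal spread. The differences here include values of 0 and rest on arms of as few as 3 wells, so that rate need not hold. The far animal was M4 in 5 assays, M3 in 4 and p12M3 in 1. For Tnfrsf1a the far difference was that of p12M3, at 4.61, against 1.85 to 2.65. For Cd3e it was that of M4, at 7.01, against -0.97 to 0.59. The negative arm of M4 held 3 wells, of which 1 lacked Cd3e and 1 had it at a Ct of 19.2 with a melting temperature of 85.3 degrees Celsius, where the median of the member wells with Cd3e was 80.7. M4 was also far above the others for the kinase gene Jak1 at 3.97 (-0.35 to 0.19), Tnfaip3 at 5.04 (-1.46 to -0.37), Il27ra at 4.47 (-1.76 to -0.46) and Irf1 at 7.28 (-0.71 to 1.60), 4 genes named for these values. M3 stood apart for Foxp3 at -4.05 (others -0.12 to 0.64), Ctla4 at -2.92 (0 to 0.96), Pdcd1 at -2.02 (0 to 0.46) and Bcl6 at 3.01 (0 to 0.74). In its negative arm of 3 wells, Foxp3, Ctla4 and Pdcd1 were each found in 1 well.

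The size of the Tbx21 division differed between blood and islets by the test of the difference itself for Cxcr3 (6.40), Ccr7 (-7.10), Nr4a1 (-6.06), Pdcd1 (-4.47) and Irf4 (-3.42), in log2Ex, blood minus islets. Islet wells with Tbx21 had 7.36 more other assays than those without, and blood wells 5.73; the part of this in the 5 differences is measured only as far as the values at equal assay number go, where Cxcr3 was 6.91, Ccr7 -6.01, Nr4a1 -5.83, Pdcd1 -4.44 and Irf4 -1.94.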

How the results depend on the processing

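Cxcr3 kept its direction under all 19 alternatives as measured and passed in 17, and under all 18 at equal assay number, passing in each. Ccr7 kept its direction too, passing in 16 of 19 and 14 of 18; Ifng passed in 11 of 19 and 8 of 18. The 6 calls as measured became 35 with calls ignored, 17 with at least 5 wells per arm (2 animals), 3 without the assay filter, with centred arms or with matched wells, 2 with at least 25 assays (4 animals), 0 with M3 and p12M3 merged (13 unadjusted, limma) and 0 to 3 with 1 animal left out. The 2 calls at equal number became 10 with calls ignored or at least 5 wells per arm, 4 with shares of wells, 5 with weighting by wells, 1 with merging and 1 to 3 with 1 animal left out. Without the pairing by animal as a block they became 5, and the 6 calls as measured stayed 6, 5 of them the same genes. The 2 islet calls became 14 in islet 13-21 cells (3 animals), 0 at equal assay number and 0 to 22 with 1 animal left out. The 5 calls of blood against islets became 9 with at least 25 assays and 2 without p12M3. The number of other assays kept its direction under all 8 alternatives. The causes were not tested. Leaving out the well with a failed Tbx21 call, the islet values at equal number and blood against islets without p12M3 were chosen after seeing the data.

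Alternatives were followed gene by gene only for the genes named in the report, and in these, directions as measured turned as follows, in genes that did not pass. Matched wells gave Il2ra -0.52, Icos -0.30, Cd4 -0.64, Cd3e -0.28 and Gapdh -0.071. Centring, which takes off 0.78 on average, gave Cd44 -0.18, Cd4 -0.56 and Gapdh -0.56. Ignoring calls gave Il7r 2.54, Pdcd1 0.38 and Ctla4 0.40. At least 5 wells per arm gave Pdcd1 0.29, Ctla4 0.84 and Cd4 -1.74. At least 25 assays gave Cd4 -0.97 and Cd3e -0.10, and at least 30 gave Cd4 -0.82. Shares of wells gave Ctla4 0.0024, merging 0.29 and weighting 0.19, with Cd4 -0.43. With 1 animal left out, Foxp3 ran from -1.04 to 0.13, Pdcd1 from -0.47 to 0.15, Ctla4 from -0.43 to 0.54, Icos from -0.056 to 1.51, Cd4 from -1.05 to 0.91 and Cd3e from -0.18 to 1.82; the sign turned without M3 for Foxp3, Pdcd1 and Ctla4 and without M4 for Icos, Cd4 and Cd3e. At equal assay number, 11 of all 69 assays had the opposite sign to that as measured, 0 of them called in either, among them Icos at -0.56, Cd4 at -0.41 and Ly6e, which went from 1.19 to -1.24.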

Other observations

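Foxp3 was found in 5 member wells, a group looked at after its values were seen. The 2 without Tbx21, from 2 animals, both had Ctla4, Pdcd1, Il2ra, Cd4 and Ccr7, and neither had Cxcr3. Of the 3 with Tbx21, 2 had Cxcr3, 2 had Ctla4, 3 had Il2ra and 0 had Ifng or Pdcd1. The 11 Tbx21-negative wells with Nr4a1 came from 5 animals, and 7 of them had Ccr7, 8 had Cd4 and 7 had Icos. These shares were near those of all 28 Tbx21-negative wells, where 19 had Ccr7, 21 had Cd4 and 16 had Icos.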
